A study of Mus musculus with 82 samples.

Results

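H3K27me3, the trimethylation of lysine 27 on histone H3, was followed over all protein-coding genes outside the Hox clusters in wild-type (wt) mouse stembryos between 72 h and 144 h after aggregation. The members were the 6 wt H3K27me3 libraries, of 82 samples in the series: 1 unnumbered library for each of the stages 72 h, 96 h, 120 h and 144 h, and rep1 and rep2 of 96 h. The unnumbered libraries gave the time course, and the 3 libraries of 96 h gave the spread between libraries of 1 stage. Of 21808 protein-coding genes outside the 4 Hox clusters, 803 had a lasting gain, defined as no H3K27me3 region near a start at 72 h and a region at both 120 h and 144 h. A lasting loss, a region at 72 h and none at 120 h and 144 h, was found for 375 genes, and 3034 genes had a region at all 4 stages and are called kept. No test was run, because each stage but 96 h had 1 library.

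Stembryos, also called gastruloids, are aggregates of mouse embryonic stem (mES) cells, here the wt EmbryoMax 129/SVEV line, that elongate into a structure resembling the trunk and tail of the embryo. All of them received a pulse of Chiron, an agonist of Wnt signalling, between 48 h and 72 h, so no stage in these comparisons lacked it. Each library pooled many stembryos. Up to 96 h they were collected without selection, whereas from 108 h clearly elongating ones were picked, so that stage and selection cannot be told apart between 72 h and 144 h. Wt stembryos also gave libraries for H3K27ac (8 libraries from 72 h to 144 h), total RNA polymerase II (PolII, 4 libraries) and the homeodomain factor CDX2 (2 libraries). Whether these came from the same pools as the H3K27me3 libraries is not stated. In such bulk samples, a mark lost in some cells and a mark lowered in all cells cannot be told apart.

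H3K27me3 is laid down by Polycomb repressive complex 2, whose catalytic subunit is Ezh2 or Ezh1, and is read by chromobox (Cbx) proteins of Polycomb repressive complex 1. In embryonic stem cells it covers CpG-rich promoters of developmental regulators that are silent or low. The acetylation of the same lysine, H3K27ac, marks active promoters and enhancers, and 1 histone tail cannot carry both marks on that lysine. Genes of pluripotency are silenced and lineage genes are sorted into active and Polycomb-bound sets as the embryo gastrulates.

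The stretches below, from mm10 (GRCm38), lie under H3K27me3 regions near the starts of 6 genes that the results turn on. They are shown because CpG dinucleotides, given in capitals, are the sequence feature with which Polycomb regions are best known to coincide. Cdh1, Nodal and Esrp1 carry the mark at 144 h, and Kif26b, Hes7 and Dll1 carried it at 72 h.
Cdh1, chr8:106603635-106603784, plus strand: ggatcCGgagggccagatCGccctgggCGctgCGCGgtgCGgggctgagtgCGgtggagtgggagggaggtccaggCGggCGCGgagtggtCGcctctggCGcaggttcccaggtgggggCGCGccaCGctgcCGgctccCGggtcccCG
Nodal, chr10:61418533-61418682, plus strand: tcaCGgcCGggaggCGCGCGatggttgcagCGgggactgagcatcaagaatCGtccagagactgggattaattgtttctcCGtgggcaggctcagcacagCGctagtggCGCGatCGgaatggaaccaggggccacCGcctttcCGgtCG
Esrp1, chr4:11388039-11388188, minus strand: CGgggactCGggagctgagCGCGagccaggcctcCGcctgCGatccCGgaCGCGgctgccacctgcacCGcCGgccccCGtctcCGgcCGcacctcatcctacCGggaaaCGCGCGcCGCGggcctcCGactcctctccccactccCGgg
Kif26b, chr1:178528013-178528162, plus strand: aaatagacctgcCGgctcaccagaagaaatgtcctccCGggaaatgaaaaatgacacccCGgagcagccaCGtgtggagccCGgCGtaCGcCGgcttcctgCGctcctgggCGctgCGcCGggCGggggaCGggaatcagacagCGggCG
Hes7, chr11:69121676-69121825, plus strand: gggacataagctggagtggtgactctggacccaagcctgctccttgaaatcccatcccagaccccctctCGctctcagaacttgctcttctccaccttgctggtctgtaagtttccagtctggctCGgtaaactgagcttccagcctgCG
Dll1, chr17:15374501-15374650, minus strand: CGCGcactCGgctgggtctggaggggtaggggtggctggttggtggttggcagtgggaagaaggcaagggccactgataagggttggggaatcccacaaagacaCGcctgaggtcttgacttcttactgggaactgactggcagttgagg
Each stretch is 150 bases long, avoids annotated exons and is the one with the most CpG dinucleotides in the regions searched. Those of Cdh1, Nodal, Hes7 and Dll1 lie in introns, and those of Esrp1 and Kif26b lie upstream of the start. The stretches of Cdh1, Nodal, Esrp1 and Kif26b held 18, 15, 22 and 16 CpG dinucleotides, against 3 in that of Hes7 and 4 in that of Dll1. These counts are thus maxima rather than typical values, and the length searched differed between genes. The medians over whole regions are given further on.

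The H3K27me3 lists held 12512 peaks at 72 h, 16281 (unnumbered), 18157 (rep1) and 21287 (rep2) at 96 h, 22684 at 120 h and 13317 at 144 h. Peaks that touched were merged, which left 7680 regions over 5.76 Mb at 144 h and 7732 regions over 4.71 Mb at 72 h. The genome background of a list, the lowest fragment pileup expected by the peak caller which moves with the number of fragments kept, was 1.61 fragments at 144 h and 1.74 at 72 h, and between 1.89 and 2.99 in the libraries of 96 h and 120 h. The 144 h and 72 h libraries were thus close in background and number of regions, while those between them had a higher background and more regions. By the study's own account the 144 h library was sequenced less deeply than that of 72 h. An absent region means that the signal did not pass the caller's threshold, which rises with the local background over 10 kb. Cell types of the elongating stembryo, which the sample titles do not name, were checked by H3K27ac near the starts of defining markers. Over all genes, 52.9% had an H3K27ac region at 144 h and 65.0% at 72 h. Of 10 markers of axial progenitors, paraxial mesoderm and neural tube, 8 had an H3K27ac region at 144 h and 9 at 72 h, and Tbx6 and Msgn1, both of presomitic mesoderm, had none at 144 h. Of 4 mES cell markers, 1 (Klf4) kept it at 144 h, against 4 at 72 h. None of the 10 markers of endoderm, heart, blood, trophoblast and germ cells had an H3K27ac region at 144 h. At 72 h, 1 of 2 endoderm, 2 of 2 heart, 1 of 2 blood, 1 of 2 trophoblast and 2 of 2 germ cell markers had one. Markers of other cells were thus acetylated at 72 h as well, and the 144 h H3K27ac list was shorter than that of 72 h.

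At 144 h, 877 genes had an H3K27me3 region within 2.5 kb of a start that was absent at 72 h (4.02% of 21808 genes), and 932 lacked one that was present at 72 h (4.27%). Both stages shared 3134 genes. The lasting gains were 3.68% and the lasting losses 1.72% of all genes. Of the 877 gains, 803 also had the region at 120 h, whereas of the 932 losses only 375 were also absent at 120 h, where the list was longest. The order depended on list length. When every list was shortened to its 12512 strongest peaks, 546 genes had a lasting gain and 748 a lasting loss. Which of the directions held more genes was therefore not stable.

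The spread at 96 h sets the scale for these counts. Between the unnumbered library and rep1, 1072 genes differed, or 20.6% of the genes with a region in either. The unnumbered library and rep2 differed at 1137 genes (21.0%), and rep1 and rep2 at 965 genes (17.8%). Between 144 h and 72 h, 1809 genes differed, 36.6% of the genes with a region in either. The change over time was larger than the difference between libraries of 1 stage. Libraries of 1 stage still differed at 17.8% or more of these genes, so the gain or loss of a single short region lies within the spread. For the lasting calls, which set 1 library against 2, the like count at 96 h is the number of genes on which 1 library differs from both others. A region was absent from 1 library and present in both others at 405 (unnumbered), 216 (rep1) and 77 genes (rep2), against 803 lasting gains. A region was present in 1 library alone at 217 (unnumbered), 234 (rep1) and 438 genes (rep2), against 375 lasting losses. The number of lasting gains was thus above this spread, and the number of lasting losses was within it.

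**Figure D1:**
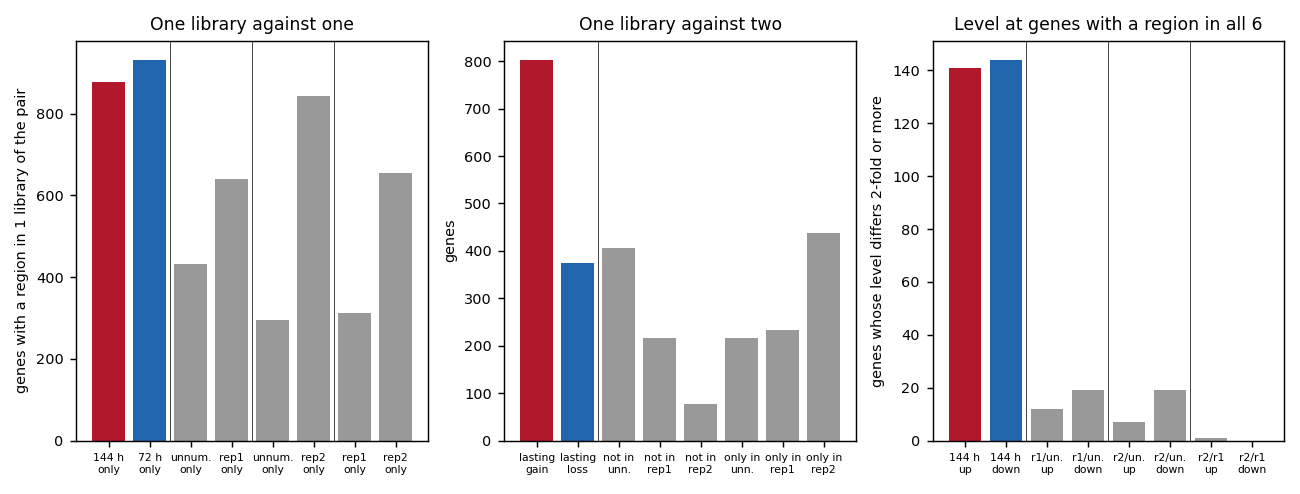
Numbers of genes outside the Hox clusters (bars, in genes), with stage comparisons in colour and pairs of 96 h libraries in grey. Left, a region within 2.5 kb of a start in only 1 library of a pair, 877 for 144 h and 932 for 72 h; middle, lasting gains (803) and losses (375) beside genes on which 1 library of 96 h differed from both others (77 to 438); right, genes with a level at least 2-fold higher or lower, 141 and 144 between the stages and at most 19 between 96 h libraries.

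Most lasting gains were in place early. Of the 803 genes, 501 (62.4%) had the region in all 3 libraries of 96 h, 121 in 2, 72 in 1 and 109 in none. Where called, these regions covered a median of 668, 812 and 846 bases of the window in the 3 libraries of 96 h, 1076 bases at 120 h and 640 bases at 144 h. Of the 375 lasting losses, 177 (47.2%) had no region in any library of 96 h, 95 had it in 1, 57 in 2 and 46 in all 3. At 72 h these lost regions were short, with a median of 371 bases, against 952.5 bases for the kept genes at 72 h. The gains were thus made of longer regions than the losses. When the call had to hold under 5 other settings (windows of 1 kb and 5 kb, a stricter q-value, equal list length and at least 500 covered bases), 265 of 803 lasting gains (33.0%) and 35 of 375 lasting losses (9.33%) remained. All of the 12 longest gains were among them, and 9 of the 12 longest losses, the exceptions being Jak2, Col2a1 and Tnrc18. A region of 72 h lay within 10 kb outside the window for 112 of the lasting gains (13.9%), and a region of 144 h for 36 of the lasting losses (9.6%). At these genes a region stood nearby at the stage at which the window held none.

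Cdh1 had the longest gain. It encodes E-cadherin, the adhesion molecule of epithelia and of mES cells (chromosome 8, 106603351 to 106670246), and had no covered bases at 72 h, 574, 1815 and 1995 in the 96 h libraries, 2411 at 120 h and 2856 at 144 h, the most of any lasting gain. Coverage was thus seen in every library after 72 h, and no 72 h region lay within 89.3 kb of its window. PolII covered 338 bases near the Cdh1 start at 144 h and 1265 at 72 h. Cldn7, a claudin of tight junctions, had 0 bases at 72 h, 2365, 2481 and 2484 in the 96 h libraries, 2632 at 120 h and 2777 at 144 h. Epcam, an epithelial adhesion molecule outside the 12 longest, had 0 bases at 72 h, 1514, 1573 and 1811 in the 96 h libraries, 2498 at 120 h and 2116 at 144 h. In all 3 of these genes, every library of 96 h or later had the region. Spint1, which encodes an inhibitor of the serine proteases that act on epithelial surfaces, reached 2232 bases at 144 h, and Cldn6, another claudin outside the 12 longest, 1789 bases, both against 0 at 72 h. F2rl1, a receptor activated by such proteases, reached 2354 bases at 144 h against 0 at 72 h.

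Cdh2, which encodes N-cadherin, the adhesion molecule of mesoderm and neural tissue, had 756 bases at 72 h, 0, 224 and 0 in the 96 h libraries and 0 at both 120 h and 144 h. Its call thus went opposite to that of Cdh1, although its region had all but gone by 96 h. The Cdh2 call was lost with the window of 1 kb, whereas the Cdh1 call held under all 5 other settings. The number of lasting losses was also within the spread at 96 h. H3K27ac covered 1764 bases near the Cdh2 start at 144 h and 2049 at 72 h, so acetylation was present at both ends.

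The list of the primitive streak, the site where mesoderm forms, had the highest share of gains of the 29 lists: 6 of 13 genes had a lasting gain and none a lasting loss, beside 3.68% and 1.72% of all genes. Nodal, the TGF-beta ligand that maintains the epiblast and patterns the streak (chromosome 10, 61417972 to 61425338), had 0 bases at 72 h, 2028, 1978 and 2314 in the 96 h libraries, 3173 at 120 h and 2478 at 144 h. Its H3K27ac covered 1679 bases at 72 h, 468, 258 and 227 in the 96 h libraries and none in the 3 libraries of 120 h or at 144 h, and PolII was seen at 72 h alone. A region of 72 h lay 3.46 kb outside the Nodal window. At Nodal the marks thus crossed between 72 h and 120 h, with both called at 96 h. Tdgf1, the Nodal co-receptor also called Cripto, had 0 bases at 72 h, 1950, 2125 and 2567 in the 96 h libraries, 2958 at 120 h and 2243 at 144 h. Wnt3, the Wnt ligand that starts streak formation, had 0 bases at 72 h, 1564, 2029 and 2305 in the 96 h libraries, 3390 at 120 h and 2236 at 144 h. Mixl1, a homeobox gene of the streak, had 0 bases at 72 h, 831, 1279 and 1455 in the 96 h libraries, 1465 at 120 h and 1752 at 144 h. These 4 genes showed the same order, with the region absent at 72 h and called in all 5 later libraries. Tdgf1 is not in the list. Beside Nodal, Wnt3, Mixl1 and T, the list members with a gain were Foxh1 and Fgf8. Foxh1 encodes a DNA-binding partner of the Smads downstream of Nodal, and Fgf8 is a ligand of the streak. A 72 h region lay 0.222 kb from the Fgf8 window.

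T, Cdx2 and Nkx1-2, which mark axial progenitors, were covered later. T, the T-box gene Brachyury of the streak and tail bud, had 0 bases at 72 h and in all 3 libraries of 96 h, 1054 at 120 h and 1587 at 144 h. Cdx2, a homeobox gene of the posterior embryo, had 0 bases at 72 h and in all 3 libraries of 96 h, 2581 at 120 h and 722 at 144 h. Nkx1-2, a homeobox gene of neuromesodermal progenitors, had 0 bases at 72 h, 0, 0 and 103 in the 96 h libraries, 1980 at 120 h and 1899 at 144 h. None of the 3 had an appreciable region before 120 h, in contrast with Nodal and Wnt3. All 3 still had H3K27ac and PolII at 144 h: H3K27ac covered 859 bases at T, 1179 at Cdx2 and 308 at Nkx1-2 at 144 h, against 1658, 1266 and 3106 at 72 h. A region of 72 h lay 1.304 kb outside the Cdx2 window. The Nkx1-2 call held under all 5 other settings, the T call was lost with lists of equal length, and the Cdx2 call with the 5 kb window and at the stricter q-value. Of 14 genes in the list of tail bud and axial progenitors, Cdx2, Nkx1-2 and Fgf17 had a lasting gain and none a lasting loss. Fgf17, an FGF ligand of the tail bud, was not late, with 0 bases at 72 h, 519, 731 and 434 in the 96 h libraries, 1397 at 120 h and 521 at 144 h.

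Pluripotency genes were split. Pou5f1, which encodes the pluripotency factor Oct4, had 0 bases at 72 h, 436, 1125 and 895 in the 96 h libraries, 1733 at 120 h and 980 at 144 h. Its H3K27ac covered 2640 bases at 72 h, 690, 0 and 0 in the 96 h libraries and none later, and PolII 2504 bases at 72 h and none later. This was the longest H3K27ac coverage among the lasting gain genes that lost H3K27ac, and H3K27me3 was called there from 96 h. Nanog, a factor of naive pluripotency, had 0 bases at 72 h and in all 3 libraries of 96 h, 696 at 120 h and 258 at 144 h. Its H3K27ac of 627 bases was called at 72 h alone, and H3K27me3 was thus first called after the acetylation was no longer called. Fgf5, a ligand of the formative epiblast, had 0 bases at 72 h, 1566, 2271 and 2405 in the 96 h libraries, 2603 at 120 h and 2207 at 144 h. L1td1, an RNA-binding protein abundant in pluripotent cells, reached 2463 bases at 144 h against 0 at 72 h. Of 12 genes of naive pluripotency, 2 had a lasting gain (Nanog and Tbx3), and of 11 genes of the formative and primed epiblast also 2 (Fgf5 and Sall2). Most others did not change state. Esrrb and Klf4, for example, had H3K27me3 in all 6 libraries, 2362 and 1426 bases at 144 h and 2868 and 1814 at 72 h, and Zfp42 had none in any.

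The remaining genes among the 12 longest gains were Stx3, a syntaxin of membrane fusion, with 2181 bases at 144 h, Cep170b, a relative of the centrosomal protein Cep170, with 2124, and Kif1a, a kinesin of axonal transport, with 2120. All 3 had 0 bases at 72 h.

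**Figure D2:**
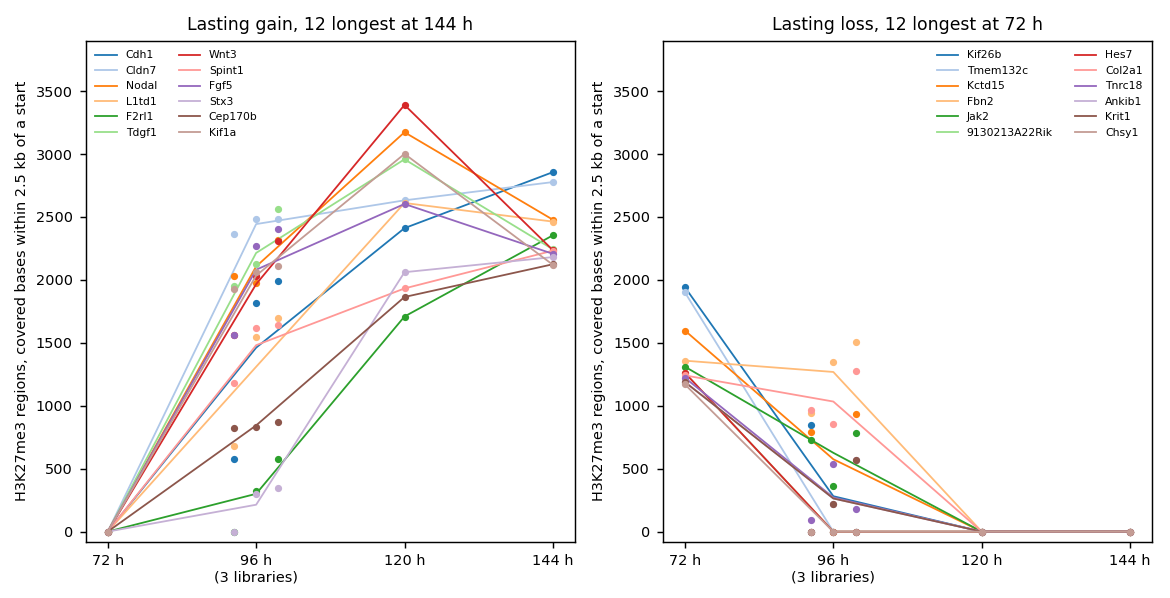
Bases covered by H3K27me3 regions within 2.5 kb of a start, by stage in hours, for the 12 longest lasting gains (left) and losses (right); each point is 1 library, and lines join the stages through the mean of the 3 libraries at 96 h. Every gain is at 0 at 72 h, with Cdh1 at 2856 bases at 144 h, and every loss is at 0 at 120 h and 144 h, with Kif26b at 1941 bases at 72 h.

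The losses held fewer long regions. Kif26b, a kinesin family member that acts in noncanonical Wnt signalling (chromosome 1, 178529125 to 178939200), had 1941 bases at 72 h, 844, 0 and 0 in the 96 h libraries and 0 at 120 h and 144 h. PolII near its start covered 1019 bases at 144 h and 291 at 72 h. Tmem132c, which encodes a transmembrane protein, had 1900 bases at 72 h and 0 in every later library. H3K27ac near its start was seen in all 8 libraries, with 269 bases at 72 h, 2005, 1619 and 1236 in the 96 h libraries, 1637, 1375 and 1493 at 120 h and 1876 at 144 h. The acetylated part of Tmem132c was thus longer in each of the later libraries than at 72 h. Kctd15, a BTB-domain protein that restrains neural crest formation in zebrafish, had 1597 bases at 72 h, 791, 0 and 934 in the 96 h libraries and 0 at 120 h and 144 h. Fbn2, which encodes the microfibril protein fibrillin-2, had 1358 bases at 72 h, 945, 1351 and 1509 in the 96 h libraries and 0 at 120 h and 144 h. Col2a1, the type II collagen gene of notochord and cartilage, had 1241 bases at 72 h, 964, 857 and 1279 in the 96 h libraries and 0 at 120 h and 144 h. Fbn2 and Col2a1 therefore lost the mark after 96 h, and Tmem132c before it. A region of 144 h lay 1.277 kb outside the Col2a1 window, and with a window of 5 kb its call was not a loss. Jak2, a cytokine receptor kinase, Tnrc18, Chsy1, a chondroitin sulfate synthase, and the pair Ankib1 and Krit1, which share 1 window, had between 1169 and 1310 bases at 72 h.

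Genes of the Notch pathway, which drives the segmentation clock in presomitic mesoderm, were among the losses. Hes7, an oscillating repressor of that clock (chromosome 11, 69120404 to 69124055), had 1261 bases at 72 h and 0 in every later library, and its window overlaps that of 9130213A22Rik, which carries the same region. H3K27ac near Hes7 covered 649 bases at 72 h, 2661, 2303 and 2185 in the 96 h libraries, 1514, 1327 and 1201 at 120 h and 391 at 144 h, so it was longest at 96 h, when H3K27me3 was no longer called. Dll1, a Notch ligand, had 819 bases at 72 h and Notch1, the receptor, 609, and both had 0 in every later library. Of 27 genes of Hedgehog and Notch signalling, these 3 had a lasting loss (11.1%, beside 1.72% of all genes) and Hes3 a lasting gain (3.70%, beside 3.68% of all genes). Only a gene with a region at 72 h can lose it, and 17 of the 27 had one, against 4066 of all 21808 genes. The list was thus richer than all genes in genes that could have a loss. The calls of Hes7 and Notch1 held under all 5 other settings, and that of Dll1 was lost at the stricter q-value.

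The 29 gene lists held 420 distinct genes outside the Hox clusters, of which 228 were kept at all 4 stages, 45 had a lasting gain and 17 a lasting loss. Their shares are read beside the 3.68% of all genes with a lasting gain and the 1.72% with a lasting loss. Endoderm had 5 gains and no loss of 16 genes (Cdx2, Cldn6, Epcam, Gata4 and Gata6). Lateral and intermediate mesoderm and heart also had 5 and no loss, of 17 (Foxf1, Gata4, Gata6, Tbx5 and Wt1). FGF ligands had 5 and no loss of 22 (Fgf5, Fgf8, Fgf10, Fgf17 and Fgf21). Retinoic acid genes had 3 gains of 17, namely the degrading enzyme Cyp26c1 and the receptors Rarg and Rxrg. Among families of developmental transcription factors, 4 of 14 Nkx, 3 of 17 T-box and 2 of 6 Gata genes had a lasting gain and none a lasting loss. In the list of neural progenitors 1 of 29 genes (Nkx2-2, 3.45%) and in that of neuronal differentiation 1 of 20 (Lhx5, 5.0%) had a lasting gain, shares near that of all genes, and Msx1 was the only lasting loss in them. No Pax gene of 9 had a lasting gain or loss, though 6 of them had a region at all 4 stages. Paraxial mesoderm and somites, with 19 genes, had 1 loss (Foxc1) and no gain. Among the other lists, neural crest had 3 gains and 1 loss of 17, vessel and blood 2 gains of 13, trophoblast 2 of 14, germ cell 1 of 10 (Kit), LIM homeobox genes 1 of 12, the Cdx and ParaHox genes 1 of 6, and BMP, TGF-beta and Nodal signalling 2 gains (Inhba and Nodal) and 1 loss (Tgfb3) of 31. Many of these genes had a region near the window at the stage at which the window held none. A 72 h region lay within 10 kb of the windows of Cldn6, Cyp26c1, Gata6, Nkx2-2, Nkx2-3, Nkx6-3, Lhx5 and Dlx1. The same held for Dlx5, Foxd3, Hes3, Fgf21, Tbx3, Tbx5, Twist1 and Fli1. A 144 h region lay within 10 kb of the windows of Foxc1, Irx1 and Msx1.

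Of 28 Wnt receptors, inhibitors and targets, 3 lost the region (10.7%, beside 1.72% of all genes), namely the receptor Fzd2, the inhibitor Nkd1 and Rspo3, a secreted enhancer of Wnt signalling, and 1 gained it (Rspo4, 3.57%, beside 3.68% of all genes). Of the 28, 22 had a region at 72 h and could lose it, against 4066 of all 21808 genes. All 3 losses were absent with the window of 1 kb, and those of Nkd1 and Rspo3 also with at least 500 covered bases. Rspo3 had 291 bases at 72 h and 0 in every later library, and Fzd2 had 538 bases at 72 h and 0 in every later library. PolII near Rspo3 covered 845 bases at 144 h and none at 72 h. Of 19 Wnt ligands, Wnt3 gained and Wnt5a lost the region (5.26% each, beside 3.68% and 1.72% of all genes). The Wnt3 call held under all 5 other settings. That of Wnt5a was lost with the window of 1 kb, at the stricter q-value and with at least 500 covered bases. Among 19 Sox genes, Sox12 gained the region (5.26%) and Sox4 and Sox13 lost it (10.5%). All 3 calls were lost with the window of 1 kb. Those of Sox12 and Sox13 were also lost at the stricter q-value, and that of Sox13 with at least 500 covered bases. Sox4, a factor of differentiating progenitors, had 867 bases at 72 h, 0, 0 and 248 in the 96 h libraries and 0 at 120 h and 144 h. Among 21 genes of the Dlx, Irx, Pitx and sine oculis homeobox families, Dlx1 and Dlx5 gained the region and Irx1 and Six5 lost it (9.52% each). None of these calls held under all 5 other settings. Of 23 cadherins, ephrins and ephrin receptors, Cdh1 and Epha2 gained the region and Cdh2 and Efnb3 lost it (8.70% each). The calls of Cdh1 and Epha2 held under all 5 other settings, and those of Cdh2 and Efnb3 did not.

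The Polycomb machinery itself was included, and of its 28 genes 3 had a lasting gain (10.7%, beside 3.68% of all genes) and 1, Pcgf2, a lasting loss (3.57%, beside 1.72%). Cbx7, the H3K27me3 reader that prevails in mES cells, had 0 bases at 72 h, 1045, 1323 and 1550 in the 96 h libraries, 2107 at 120 h and 1954 at 144 h. H3K27ac near Cbx7 covered 1380 bases at 72 h, 508, 198 and 0 in the 96 h libraries and none later, and PolII 2146 bases at 72 h and none later. At Cbx8, another reader and a neighbour of Cbx2, H3K27me3 covered 949 bases at 144 h and none at 72 h, but a 72 h region lay 0.059 kb outside its window. H3K27ac at Cbx8 went the other way, with 798 bases at 144 h and none at 72 h. The third gain was Aebp2, a cofactor of Polycomb repressive complex 2, whose 144 h region covered 316 bases. Of these calls only that of Cbx7 held under all 5 other settings. The Cbx8 call was lost with the 5 kb window. The Aebp2 call was lost at the stricter q-value, with lists of equal length and with at least 500 covered bases. The Pcgf2 call was lost with at least 500 covered bases. The readers Cbx7 and Cbx8 thus differed in H3K27ac and in how firm their gain of H3K27me3 was.

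**Figure D3:**
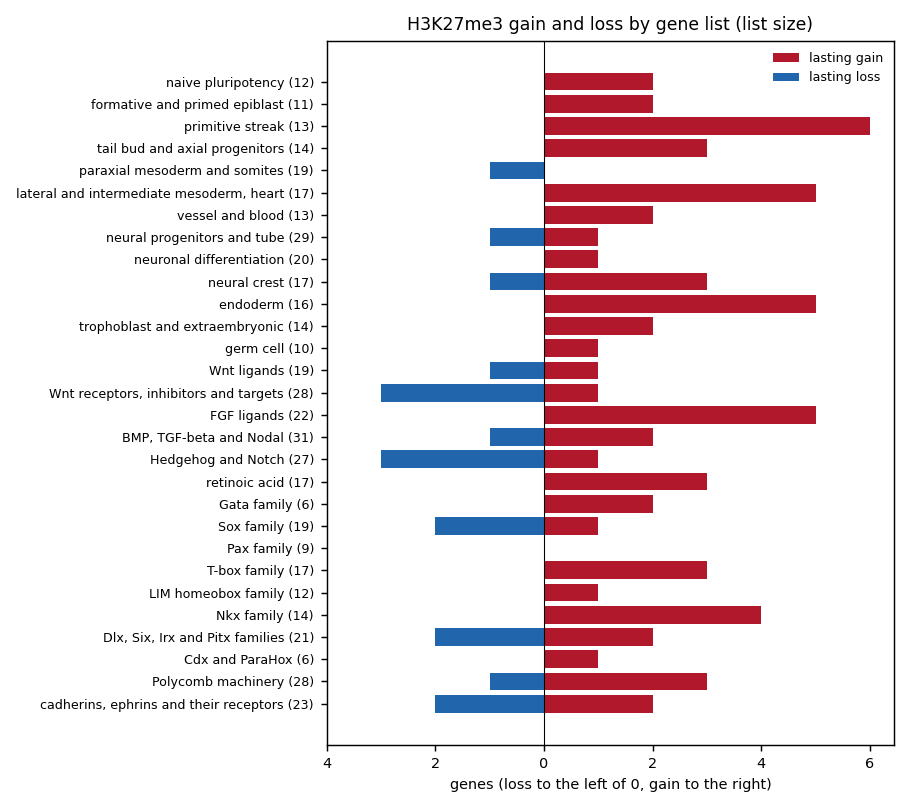
Number of genes of each list with a lasting H3K27me3 gain (bars to the right of 0) or loss (bars to the left of 0), with the size of the list in parentheses. The primitive streak list has the longest gain bar, 6 of 13 genes, and no loss, beside 3.68% and 1.72% of all genes.

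Within genes that had the mark throughout, its level was compared as the highest summit in the window over the genome background of the list, centred on the median over the 2932 genes with a summit in all 6 libraries. A gene counted as higher or lower when 144 h and 72 h differed by more than 2-fold and by more than the whole range of the 3 libraries of 96 h, and 141 genes were higher (4.81%) and 142 lower (4.84%) at 144 h. Between pairs of 96 h libraries, 12, 7 and 1 genes were more than 2-fold higher and 19, 19 and 0 lower. The changes over time exceeded the spread at 96 h, whose median range was 0.31 on the log2 scale.

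Esrp1, a splicing regulator of epithelial cells, had the largest increase, 2.51 on the centred log2 scale. Its level was 7.46 times the genome background at 72 h, 37.6, 34.4 and 38.8 times at 96 h, 81.2 times at 120 h and 45.95 times at 144 h, so all later libraries stood above 72 h. H3K27ac near Esrp1 covered 308 bases at 144 h and 2734 at 72 h, and PolII 183 bases at 144 h and 2316 at 72 h. Next came Zbtb8a, a zinc-finger gene (2.42), Otud1, a deubiquitinase (2.25), Pllp, the membrane protein plasmolipin (2.15), Myo1d, an unconventional myosin (2.08), Aff3 (2.04), and Anxa11 and Marveld1 (2.00 each). All 8 had short regions at 72 h, of 195 to 357 bases, and regions of at least 1177 bases at 144 h. Grhl2, a transcription factor of epithelia, was also higher, by 1.74, as were the list members Tfcp2l1, Otx2, Utf1, Notum and Epop.

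The largest decrease was at Pcdhgb4, a clustered gamma protocadherin of neuronal self-recognition, whose level was 9.31 times the genome background at 144 h and 52.2 times at 72 h (centred log2 change -2.60). Pcdhgb5 (-1.98), Pcdhga11 and Pcdhgb7 (-1.89 each) lie in the same cluster, and the windows of Pcdhga11 and Pcdhgb7 overlap and share a summit, so these 4 are not separate observations. The others were Cdc42ep1, an effector of the small GTPase Cdc42 (-1.97), Gm36079 (-1.91), 2700081O15Rik (-1.86) and Fzd1, a Wnt receptor (-1.83). Of the Wnt receptor list, Fzd1, Fzd3, Fzd4 and the secreted inhibitor Frzb were lower at 144 h and Notum was higher. Hes5 and Hey1, both Notch effectors, Irx3, Mnx1, Snai2, Bmp7, Dhrs3, Cbx2 and Ephb2 were the other list members that were lower.

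**Figure D4:**
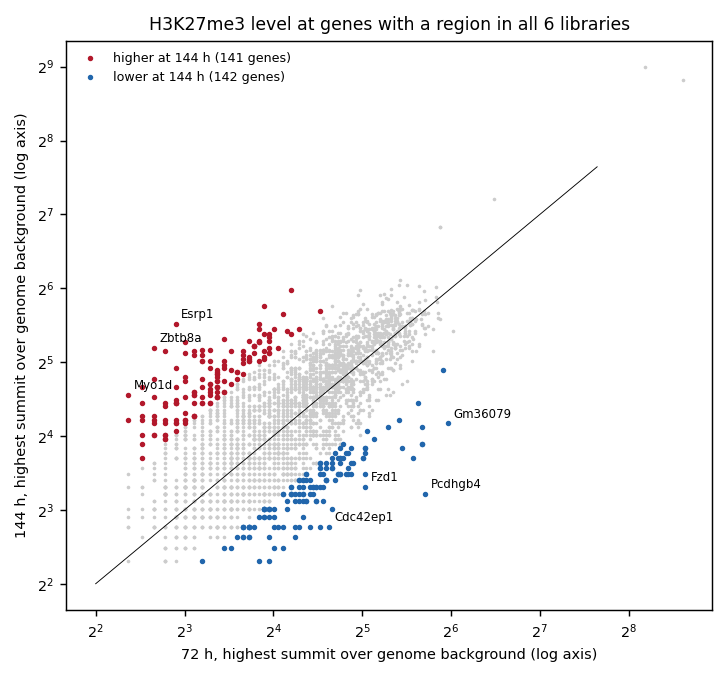
Highest H3K27me3 summit in the window over the genome background at 144 h (vertical) against 72 h (horizontal), both on log axes and not centred, for the 2932 genes with a region in all 6 libraries; the line marks equal levels. The 141 higher and 142 lower genes, called on centred levels, are coloured, with Esrp1 at 45.95 and 7.46 and Pcdhgb4 at 9.31 and 52.2 times the background at 144 h and 72 h.

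The same comparison was made without gene annotation. Regions of the 4 unnumbered lists up to 1 kb apart were joined into 9695 union regions outside the Hox clusters, of which 1592 were gained (16.4%) and 1771 lost (18.3%) at 144 h. Lasting gains numbered 1317, lasting losses 912 and kept regions 3824. Their median lengths were 1199 bases for lasting gains, 326 for lasting losses and 2045.5 for kept regions. A gene start lay within 2.5 kb of 68.0% of lasting gains, 52.3% of lasting losses and 78.5% of kept regions, against 64.7% of all. Median CpG observed over expected ratios were 0.46 in lasting gains, 0.27 in lasting losses and 0.53 in kept regions, against 0.45 in all. Regions with a lasting loss were thus shorter, less often near a start and poorer in CpG than the other groups. The lengths are not wholly comparable. A lasting loss is joined from the 72 h and 96 h lists only, and a kept region from all 4.

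The longest lasting gains among union regions lay at the homeobox genes Lhx4 (5657 bases, chromosome 1, 155736269 to 155741925) and Lhx5 (5244 bases), at Wt1, a transcription factor of kidney and gonad (4387 bases), and at Nodal and Wnt3. Their length is that of the joined region over all stages, and at Lhx4 the 144 h list covered 1091 bases of it. The longest lasting loss lay at Sall1, a zinc-finger gene of kidney and limb (3240 bases, chromosome 8, 89044781 to 89048020). Next came a stretch on chromosome 11 with no protein-coding gene start within 2.5 kb (3186 bases), and Kif26b. H3K27ac within the Sall1 region covered 394 bases at 144 h and none at 72 h.

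The comparison with H3K27ac asked which of these genes also lost or gained acetylation. Over all genes, 2815 lost an H3K27ac region between the stages (12.9%) and 177 gained one (0.812%), and the 144 h list was shorter, with 24002 regions against 47221 at 72 h. Of 803 lasting gain genes, 282 (35.1%) had lost H3K27ac at 144 h and 4 had gained it. Of 375 lasting loss genes, 24 (6.4%) had lost it and 2 had gained it. Among genes with H3K27ac at 72 h, the loss was 282 of 754 (37.4%) for lasting gains of H3K27me3, 24 of 335 (7.16%) for lasting losses and 1182 of 2714 (43.6%) for kept genes, against 2815 of 14176 (19.9%) over all genes. Genes that gained H3K27me3 thus lost H3K27ac more often than all genes but not more often than genes that had H3K27me3 at all stages. With H3K27ac lists of equal length, 24.8% of lasting gain genes lost H3K27ac, against 6.98% of all genes. When 120 h and 144 h together set the late state, 175 (21.8%) did, against 8.19% of all genes. Among union regions, 43.4% of lasting gains lost H3K27ac, beside 45.5% of kept and 31.0% of all regions. Of 912 lasting losses, 53 (5.81%) gained it and 30 (3.29%) lost it, beside 1.96% and 31.0% of all regions. At 72 h, 10.9% of lasting losses overlapped H3K27ac, against 51.0% of all regions, so a larger part of them could gain it.

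The share of acetylated genes was followed over the stages. Of lasting gain genes, 93.9% had an H3K27ac region at 72 h, 84.8%, 68.5% and 65.0% in the 3 libraries of 96 h, 64.8%, 51.6% and 45.7% in the 3 of 120 h and 59.3% at 144 h. The corresponding shares of lasting loss genes were 89.3% at 72 h, between 85.3% and 89.3% at 96 h, between 82.4% and 86.4% at 120 h and 83.5% at 144 h. Over all genes the share was 65.0% at 72 h, between 54.8% and 61.9% at 96 h, between 51.0% and 55.2% at 120 h and 52.9% at 144 h. The share of lasting gain genes at 144 h lay above that in 2 of the 3 libraries of 120 h. At 144 h most lasting gain genes thus had regions of both marks within 2.5 kb of a start, which does not mean that the regions overlapped. Of 1317 union regions with a lasting gain, 344 (26.1%) overlapped H3K27ac at 144 h, against 68.8% at 72 h. Over all union regions the shares were 21.9% at 144 h and 51.0% at 72 h. Nor does a pool of cells place both marks in the same cells. The 15 gain genes with the longest H3K27ac at 72 h that lacked it at 144 h included Pou5f1, Jade2, Vrtn, L1td1, Tfeb, Nrros, Zyg11a, Cebpb, Taok3, Slc6a15, 1700019D03Rik, Ccdc194, Vat1 and F2rl1, with 2640 (Pou5f1) to 1687 bases (F2rl1) at 72 h. Tfeb, a regulator of lysosomal genes, had 1883 bases of H3K27me3 at 144 h and 0 at 72 h. Of the genes named, PolII at 144 h was called at 5, namely Jade2, Nrros, Cebpb, Taok3 and Vat1, and not at the others, such as Pou5f1, Vrtn and Tfeb.

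The 2 lasting loss genes that gained an H3K27ac region were Duxf3 and Angpt1. Duxf3 belongs to the repeated Dux family of cleavage-stage genes, to whose copies reads cannot be assigned with certainty, and H3K27ac covered 924 bases at 144 h and none at 72 h. Angpt1, a ligand of the endothelial receptor Tie2, had 478 bases of H3K27ac at 144 h and none at 72 h, and was also acetylated in all 3 libraries of 120 h. Most lasting loss genes, 335 of 375, already had an H3K27ac region at 72 h, which left 40 that could gain one.

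The height of the H3K27ac summit was therefore compared as well, over the 10559 genes with a region at 72 h, in all 3 libraries of 96 h and at 144 h, a measure added after the data had been seen. Centred on the median, 413 of all genes were higher (3.91%) and 160 lower (1.52%) at 144 h by the same rule as for H3K27me3. Of 303 lasting loss genes 59 (19.5%) were higher and 2 lower, and of 397 lasting gain genes 4 were higher and 51 (12.8%) lower. The median centred log2 change was 0.37 for lasting losses and -0.26 for lasting gains, against 0.04 for all genes, whereas without centring the medians were -0.70 for lasting losses, -1.33 for lasting gains and -1.03 for all genes. Uncentred H3K27ac levels thus fell in these groups, by a median shift of -1.07 between the libraries, and less at lasting loss genes than over all genes. Without centring, 5 lasting loss genes were higher (1.65%), beside 0.256% of all genes. By the same measure 260 lasting gain genes were lower (65.5%), beside 5310 of all 10559 genes (50.3%). Col2a1 had a centred log2 change of 2.64 and 1891 bases of H3K27ac at 144 h against 932 at 72 h.

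**Figure D5:**
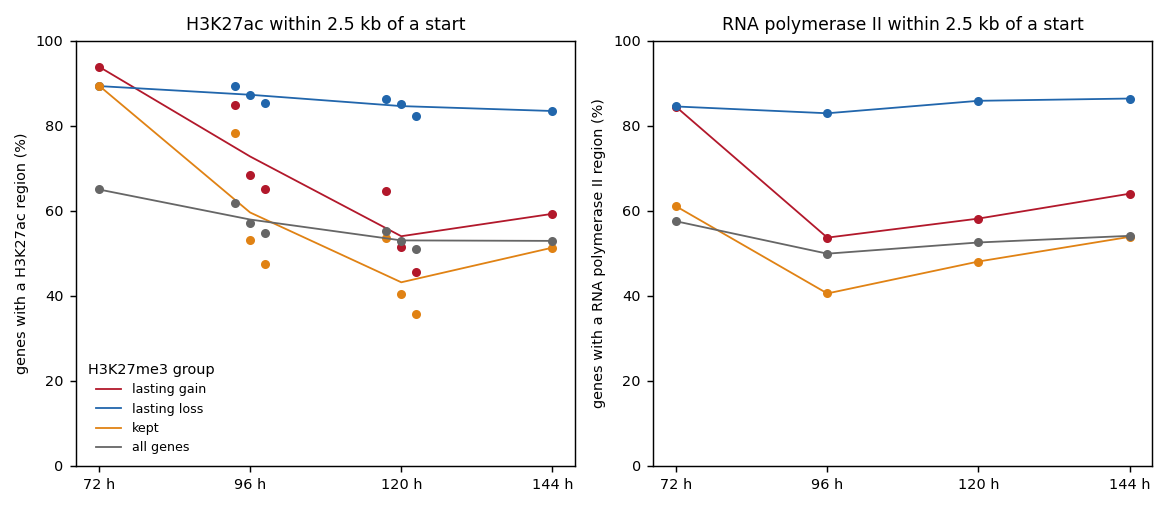
Percent of genes with an H3K27ac region (left) and a PolII region (right) within 2.5 kb of a start, by stage in hours, for genes with a lasting H3K27me3 gain, a lasting loss or a region kept at all 4 stages, beside all genes; each point is 1 library and lines join stage means. For lasting gain genes the H3K27ac share is 59.3% at 144 h and 93.9% at 72 h, and for lasting loss genes 83.5% at 144 h and 89.3% at 72 h.

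PolII followed the same groups. Over all genes, 1078 lost a PolII region at 144 h against 72 h (4.94%) and 331 gained one (1.52%). Of lasting gain genes 171 (21.3%) lost and 7 gained it, and of lasting loss genes 6 (1.6%) lost and 13 (3.47%) gained it. The share of lasting gain genes with PolII was 84.4% at 72 h, 53.7% in the 96 h library, 58.2% at 120 h and 64.0% at 144 h. That of lasting loss genes was 84.5%, 82.9%, 85.9% and 86.4% at the same stages. Among genes with PolII at 72 h, 171 of 678 lasting gain genes (25.2%) lost it, against 8.59% of all genes. The share of kept genes was close, at 414 of 1852 (22.4%). PolII was thus lost more often at genes that gained H3K27me3 than over all genes, but also at genes that had it throughout. Most lasting gain genes still had a PolII region at 144 h. Among genes with H3K27ac at 72 h, kept genes whose H3K27me3 level was higher at 144 h lost H3K27ac at 74 of 139 (53.2%). Those whose level was lower lost H3K27ac at 25 of 125 (20.0%), beside 43.6% of all kept genes and 19.9% of all genes. The higher group thus lay above the kept genes and the lower group below them. CDX2 at 96 h had a region near 19 lasting gain genes (2.37%), 23 lasting loss genes (6.13%) and 89 kept genes (2.93%), against 591 of all genes (2.71%). At 120 h, with a shorter CDX2 list, the counts were 6 lasting gain genes (0.747%), 6 lasting loss genes (1.6%) and 95 kept genes (3.13%), against 247 of all genes (1.13%). The order of the groups thus differed between the CDX2 libraries.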

How the data were processed

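H3K27me3 and H3K27ac (ChIP-seq), total PolII (ChIPmentation, in which Tn5 adds the adapters) and CDX2 (ChIP-seq) were profiled in wt stembryos. Per the study's methods and the processing notes of the submitters, the authors trimmed reads with cutadapt 1.16, mapped them to mm10 with Bowtie2 2.3.4.1, filtered them with SAMtools 1.8 and called peaks per library, without input control, with MACS2 2.1.1.20160309 at a q-value of 0.05. For each peak the deposited lists give the fold enrichment over local background, a ratio, and the −log10 p-value and −log10 q-value computed by the authors' peak caller. The lists carry no read depth, and the read pairs sequenced, which the study states, are not the fragments left after filtering. Pileup and background at each summit were solved from fold and −log10 p (whole pileups within 0.001) for 98.7% of peaks or more per list, and the procedure was tested on simulated data.

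Touching peaks were merged. A gene had a region when at least 1 base lay within 2.5 kb of a start of a protein-coding gene (GENCODE vM21, GRCm38). The Hox clusters with 10 kb on each side (43 genes) were left out. Without a control, a broad domain raises its own background, so heights were compared over the genome background of a list. The study describes its replicates as biological, each a pool of stembryos and some from different cultures, without saying which, so the spread at 96 h may be partly technical. Named genes were the 12 longest gains and losses, up to 15 genes with opposite H3K27ac change in each direction, the 8 largest level changes in each direction, and up to 4 changed members per list by covered bases. Other genes (Grhl2, Foxh1 and further list members) were named after their values were seen. A gene that the rule names is not reported here. Members and lists were chosen with earlier results of these data known. Python 3.11.15, pandas 2.3.3, numpy 2.4.6 and scipy 1.17.1 were used.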

Additional observations from a re-analysis of the deposited data

How the results depend on the processing

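Of 51 alternatives over 11 results, 36 stayed within 1.5 times the reported value. Lasting losses numbered 203 genes with a −log10 q of at least 5, 748 with lists of equal length, 224 with at least 500 covered bases, 932 when the 144 h library alone set the late state and 46 when 72 h and all 3 libraries of 96 h set the early state. Lasting gains then numbered 964, 546, 911, 877 and 109. Lost union regions numbered 908 at the stricter q-value. Of lasting gain genes, 175 (21.8%) lost H3K27ac when 120 h and 144 h set the late state, beside 8.19% of all genes. By centred summit level 51 (12.8%) were lower, beside 1.52%. Of lasting loss genes, 4 (1.07%) gained H3K27ac within 1 kb and 7 (1.87%) at the stricter q-value, beside 0.706% and 0.697% of all genes. With lists of equal length 21 (5.6%) did, beside 2.48%, and with 120 h and 144 h together 1 (0.267%), beside 0.362%. By the main call 0.533% did, beside 0.812%, so whether the share exceeded that of all genes depended on the setting. By centred summit level 59 (19.5%) were higher, beside 3.91%, and without centring 5 (1.65%), beside 0.256%. The summit levels and the leaving out of neighbouring regions were added after seeing the data. Measured against the 10 kb background, 134 kept genes were higher (85 of the 141) and 120 lower (75 of the 142). The mean disagreement of the 96 h libraries was 4.85% of all genes, and 4.42 to 5.21% with each library left out in turn. Beyond the fewer peaks or libraries each setting uses, the causes were not tested. No paired analysis was possible because the results come from no test and most stages have 1 library. A short region below the threshold of a shallow list cannot be told from an absent one.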
